A study of Mus musculus with 4 samples.

Results

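Immediate early genes are transcribed within minutes of a stimulus, because the factors that switch them on are already present in the cell. Their transcripts are also known to appear while tissue is being dissociated, so in cells released by enzymes they record the handling as well as the tissue. The 10 genes described here were measured in single bone marrow cells released with enzymes: Fos, Fosb, Jun, Junb, Jund, Egr1, Ier2, Dusp1, Zfp36 and Btg2. The genes were taken by name, and the rule for taking them used no level, but the list was chosen with earlier results of these data known. On mm10 and in the GENCODE annotation, Fos lies at chr12:85473890-85477273, Jun at chr4:95049034-95052222 and Btg2 at chr1:134075170-134079120. All 10 had a row among the 17508 genes of the deposited tables, and each had transcripts in at least 28 kept wells.

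Fos and Fosb proteins pair with Jun, Junb or Jund to form AP-1, a transcription factor that acts on stress and growth genes. Egr1 encodes a zinc finger transcription factor and Ier2 a nuclear protein induced with them. Dusp1, a phosphatase of the stress and ERK kinases, and Zfp36, which speeds the decay of short-lived mRNAs, turn the response down again, and Btg2 encodes an antiproliferative cofactor of mRNA deadenylation. Transcription of several of these genes is driven by CREB at TGACG sites and by serum response factor at CArG boxes.

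The cells came from bone marrow of C57BL/6 mice, dissociated with collagenase IV at 2 mg/mL and dispase at 1 mg/mL. Cells lacking CD51 and called TNCs in the labels, which do not spell the name out, were sorted one per well as CD44+ or CD44- on 4 plates. All groups shared the strain and the enzymes, and no undissociated or unstimulated cells were analysed here, so no level below can be set against marrow before handling. Plate 1 held the CD44+ sort, plate 2 the CD44- sort, and plates 3 and 4 held CD44+ in rows A to H and CD44- in rows I to P, giving 3 libraries per sort. The labels give no ages and name no animals, and separate animals per library are not stated. A p-value here therefore reflects how far libraries differ from each other, and that spread may be technical.

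Of 1536 wells, 343 had at least 1000 transcripts and were kept, 238 CD44+ and 105 CD44-. The CD44+ libraries summed 149707, 1118722 and 1707318 transcripts, and the CD44- libraries 97041, 101367 and 158763. Wells of low quality made up 41.1% of the kept wells on plate 1 and 34.1% on plate 2, against 4.17% to 10.8% in the 4 libraries of plates 3 and 4. Every plate used the same set of well barcodes. Among wells with at least 500 transcripts, the profile on plate 1 was closest to the same-numbered well of plate 2 for 7 of 29 numbers, against 0 to 3 numbers in each of the other 5 pairs of plates. The 18 wells kept under the same number on plates 1 and 2 were therefore also left out in an added comparison. Early erythroid markers (10 genes) summed to 3839 to 9022 transcripts per 1000000 (CPM) in the CD44+ libraries and 1490 to 2402 CPM in the CD44- libraries. Stromal markers (11 genes) summed to 167 to 1350 CPM in CD44+ and 5482 to 28767 CPM in CD44-. Sums of other lineages overlapped between the sorts. Neutrophil and monocyte markers were at 5122, 12997 and 9870 CPM in CD44+ replicates 1 to 3 and at 26639, 36998 and 1298 in CD44-. In CD44- replicates 1 and 2 these sums were above the stromal sums of 5482 and 11565 CPM. Late erythroid markers were at 1566, 2427 and 2960 CPM in CD44+ and at 35376, 2067 and 4770 in CD44-.

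The sequences just upstream of 8 of the 10 genes were taken from RefSeq on build GRCm38.p6, as the 250 bases before each annotated start. The 4 printed here hold the different motifs found, which are in capitals. They are Fos (chr12:85473640-85473889, plus strand), Fosb (chr7:19310046-19310295, minus strand), Zfp36 (chr7:28379229-28379478, minus strand) and Dusp1 (chr17:26508473-26508722, minus strand).
Fos: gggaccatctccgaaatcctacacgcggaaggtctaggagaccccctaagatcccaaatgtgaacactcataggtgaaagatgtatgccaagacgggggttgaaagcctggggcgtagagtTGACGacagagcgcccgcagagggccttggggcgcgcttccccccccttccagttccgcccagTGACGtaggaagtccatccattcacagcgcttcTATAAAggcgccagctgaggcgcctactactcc
Fosb: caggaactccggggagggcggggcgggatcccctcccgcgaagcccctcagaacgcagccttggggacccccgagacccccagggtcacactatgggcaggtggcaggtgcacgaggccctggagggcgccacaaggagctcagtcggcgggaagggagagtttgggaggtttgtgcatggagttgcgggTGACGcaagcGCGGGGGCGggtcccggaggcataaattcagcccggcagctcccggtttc
Zfp36: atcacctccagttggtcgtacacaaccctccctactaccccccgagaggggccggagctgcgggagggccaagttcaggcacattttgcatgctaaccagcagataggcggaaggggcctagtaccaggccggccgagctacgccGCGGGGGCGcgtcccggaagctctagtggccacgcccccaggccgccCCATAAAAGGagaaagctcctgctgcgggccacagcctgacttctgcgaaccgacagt
Dusp1: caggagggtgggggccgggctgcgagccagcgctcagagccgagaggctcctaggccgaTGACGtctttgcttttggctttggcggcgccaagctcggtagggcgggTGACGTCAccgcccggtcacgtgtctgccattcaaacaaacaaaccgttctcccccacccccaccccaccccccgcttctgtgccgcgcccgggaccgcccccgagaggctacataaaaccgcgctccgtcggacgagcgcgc
TGACG, the core of the CREB site, was found on either strand in 5 of the 8 sequences, those of Fos, Fosb, Junb, Dusp1 and Btg2, and in 17.8% of 32851 promoters of the same length. Its full palindrome TGACGTCA, which overlaps TGACG, was found in Dusp1 and Btg2 and in 1.55% of all promoters. In Fos a TATAAA box, present in 12.4% of all promoters, lies 33 to 28 bases before the start. A CArG box, the serum response factor site, was found in Zfp36 and in 1.47% of all promoters. GCGGGGGCG, the site that Egr1 binds, was found in Fosb and Zfp36 and in 2.57% of all promoters. TGANTCA, the AP-1 site, was found in none of the 8 sequences and in 6.75% of all promoters. Each match describes letters within this window only.

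Most kept wells held few transcripts of these genes, and a few held many. After thinning 342 wells to 1000 transcripts each, 203 wells had none of the 10 genes and 58 wells (17.0%) had at least 2. Jund was found most often, in 143 of the 343 kept wells before thinning with 427 transcripts. Fosb was found least often, in 28 wells with 76 transcripts. Fos gave 350 transcripts in 48 wells, of which 92 came from a single well. Ranks of the 10 genes were weakly related across the thinned wells: over 45 gene pairs Spearman's rho ran from -0.07 to 0.42 with a median of 0.15, across wells that share libraries and plates. The highest value joined Fosb to Egr1: 6 wells held both, 54.5% of the 11 wells with Fosb and 35.3% of the 17 with Egr1. At the other end, no thinned well held both Fosb and Btg2, but before thinning 12 of the 28 wells with Fosb also held Btg2.

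The first question was how the 10 genes differed between the CD44+ and the CD44- sort. Fos, which pairs with the Jun proteins in AP-1, stood at 247, 9.83 and 45.8 CPM in CD44+ replicates 1 to 3 and at 557, 0 and 1072 in CD44-. Both values near 0 came from plate 3, and the sorts overlapped. In sums over wells, fewer expressing cells and less RNA per cell cannot be told apart. Fosb was at 66.8, 0 and 12.3 CPM in CD44+ and at 237, 0 and 139 in CD44-, and it was the gene with no transcript in any well of plate 3.

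Among the Jun partners, Jun stood at 114, 5.36 and 35.8 CPM in CD44+ and at 289, 9.87 and 473 in CD44-. Within each replicate pair the CD44- value was the higher, and the plate 3 CD44- value, from 1 transcript, lay below CD44+ replicates 1 and 3. Junb was at 54.3 ± 40.3 CPM in CD44+ and 133 ± 92.2 in CD44- (SD, n = 3 each). Jund was the most even of the 3, at 148 ± 97.7 and 323 ± 143 CPM (SD, n = 3 each), and was found in all 6 libraries with at least 19 transcripts.

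The nuclear factor Egr1 had the largest ratio between the sort means but was found in few cells. It was at 33.4, 6.26 and 4.69 CPM in CD44+ and at 361, 0 and 651 in CD44-, from 5, 7 and 8 transcripts against 35, 0 and 103. In the CD44- library of plate 3 a count of 0 allows up to 29.6 CPM, which is below CD44+ replicate 1 alone, so the groups overlapped. Ier2 stood at 60.1, 50.1 and 46.9 CPM in CD44+ and at 61.8, 69.1 and 81.9 in CD44-. It was the 1 gene of 10 whose sorts did not overlap, with all CD44+ libraries below all CD44- libraries, as was the case for 5.75% of all genes with a transcript. Without the 3 wells with the most transcripts of the 10 genes per 1000, described below, the CD44- values of Ier2 on plates 2 and 4 were 52.2 and 41.3 CPM and the sorts overlapped.

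The genes that turn the response down also varied widely within each sort. Dusp1 was at 45.5 ± 53.6 CPM in CD44+ and 85.4 ± 67.5 in CD44-, Zfp36 at 45.2 ± 43.8 and 202 ± 162, and Btg2 at 78.3 ± 30.6 and 164 ± 95.9 (SD, n = 3 each). In all 3 genes the libraries of the sorts overlapped.

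**Figure D1:**
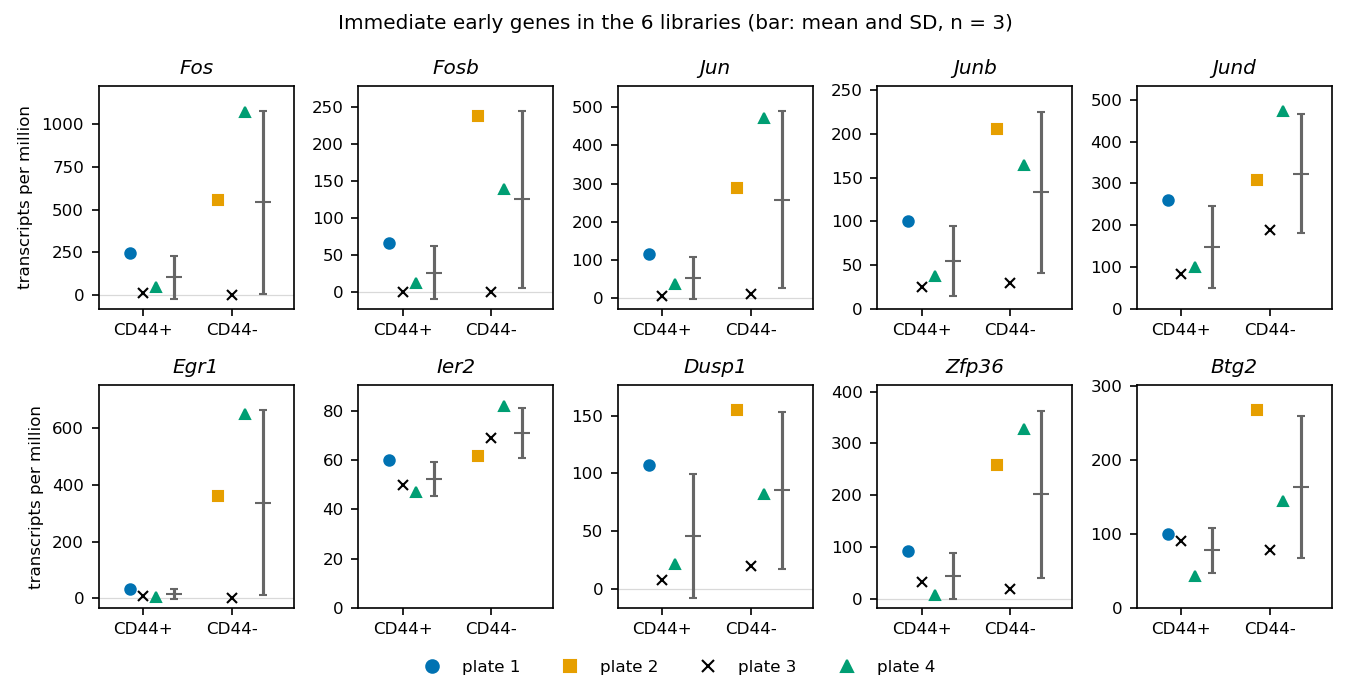
Transcripts per 1000000 (y axis, linear, a scale for each gene) of the 10 genes in the 3 CD44+ and 3 CD44- libraries, with symbols for the plates and a bar for the mean and SD (n = 3). Plates 2 and 4 give the high CD44- values of Fos (557 and 1072) and Egr1 (361 and 651), while the plate 3 crosses of Fos and Jun lie below every other library in both sorts.

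In the edgeR quasi-likelihood test over 2463 genes, 8 of the 10 genes passed the filter on low values, all but Egr1 and Ier2. None of the 8 passed an adjusted p of 0.05, where 0.974% of the tested genes were called lower in CD44+ and 0.0406% higher, and none had an unadjusted p under 0.05, against 470 of all tested genes. DESeq2 also called none of the 8. Their log2 differences, CD44+ minus CD44-, were all below 0, with a median of -2.04 against -0.04 over all tested genes. They ran from -1.18 (SE 0.63) for Jund to -3.21 (SE 1.60) for Fosb, with edgeR adjusted p from 0.266 for Zfp36 to 0.528 for Dusp1.

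With the replicate pair as a block, Fosb (log2 difference -2.78, SE 0.65, edgeR adjusted p = 0.0386) and Jun (-2.53, SE 0.62, edgeR adjusted p = 0.0397) fell in CD44+, 2 of 8 where 4.59% of all tested genes did. All 8 then had an unadjusted p under 0.05, against 614 of the 2463 genes. Without the filter on low values 5 of 10 fell, Fos, Fosb, Jun, Egr1 and Zfp36, where 1.97% of 16925 genes did. The fits that follow kept the filter and had no block, as in the first fit, which called none of the 8 genes. They do not show whether the calls with the block or without the filter would hold. Without those 3 wells 6 of the genes were tested, all of the 8 but Fosb and Dusp1. None was called by edgeR, and their median log2 difference was -1.18. The stromal marker sum given above was higher in every CD44- library than in any CD44+ library, and Adipoq, Col1a1 and Pdgfrb were at 0 in CD44+ replicate 1. Without the wells that held a Cxcl12 transcript, 3 of the genes were tested and none was called by edgeR: Fos was at -1.50, Jun at -3.15 and Jund at -1.72, against -2.49, -2.66 and -1.18 with all wells.

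The share of wells with a transcript was compared after thinning, because the CD44+ wells of plates 3 and 4 were deeper (medians of 5162 and 11225 transcripts against 1795 to 2544 in the other 4 libraries). Jun was found in 6.40% ± 5.43 of CD44+ wells and 15.5% ± 9.65 of CD44- wells (SD, n = 3 each; exact two-sided permutation p = 0.3), the smallest p of the 10. With 3 libraries against 3 no p below 0.1 is possible, and all adjusted exact permutation p-values were 0.778 or 0.8. Wells with at least 2 of the 10 genes made up 17.9%, 11.6% and 3.45% of CD44+ wells in replicates 1 to 3. They made up 22 of 44 CD44- wells on plate 2, 12 of 37 on plate 4 and 0 of 23 on plate 3. No cell type among these wells could serve as one that should lack these genes, so the share that free RNA gives was not measured.

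Plate 3 had the lowest summed level of the 10 genes in each sort, but in CD44+ plate 4 was close to it. The level on plate 3 was 314 CPM in the CD44+ library and 414 in the CD44- library. It was 356 and 3609 on plate 4, 1183 on plate 1 and 2701 on plate 2. In the CD44+ library of plate 4, 153 of the 608 transcripts of the 10 genes came from well 178. Both plate 3 libraries lay below the other 4 for Fos, Fosb, Jun, Junb and Dusp1, 5 of the 10 genes, a pattern held by 2.82% of all genes with a transcript. The CD44- library of plate 3 had 0, 0, 1, 3 and 2 transcripts of them, where 3 transcripts make 29.6 CPM. CD44+ replicate 3 lay below that level for Fosb (12.3) and Dusp1 (21.7), and Junb was at 29.6 against 37.5 there, so the order of these 3 genes is within counting error. Jund, Egr1, Ier2, Zfp36 and Btg2 did not show it: Jund reached 188 CPM in the CD44- library of plate 3, above CD44+ replicate 3 at 99.7. This comparison of plates was chosen after the values were seen, and is given with no test. Plate 3 had the lowest shares of wells of low quality (4.21% and 4.17%), and their part in the pattern was not tested.

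Wells were next grouped by the transcript of a lineage gene: Car1 (a carbonic anhydrase of erythroid progenitors), Cd79b (a chain of the B cell receptor complex), S100a8 (a neutrophil calcium-binding protein) or Cxcl12 (the chemokine of marrow stroma). With 1 of the 4 and not the others there were 35, 28, 35 and 24 wells in that order, while 59 wells had none and 162 had at least 2, so these groups are wells with a transcript and not full cell types. Each group also held other markers of its lineage, summed here without the gene that defined the group. The other 9 early erythroid markers summed to 6585 CPM in Car1 wells and at most 751 in the other 3 groups, and the other 10 B lineage markers to 7247 in Cd79b wells and at most 451. The other 12 neutrophil and monocyte markers summed to 48045 CPM in S100a8 wells and at most 3206 elsewhere, and the other 10 stromal markers to 9152 in Cxcl12 wells and at most 82.0. Car1 wells were deepest, with a median of 6374 transcripts against 1994 to 2940. Sorts were unevenly spread, since 34 of 35 Car1 wells but 9 of 24 Cxcl12 wells were CD44+. The Cxcl12 wells were also unlike between plates: at most 3 Cxcl12 transcripts were found in 6 of 7 on plate 3, 4 of 7 on plate 2 and 3 of 9 on plate 4.

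Fos transcripts were concentrated in the wells with Cxcl12 as their 1 marker. Pooled over plates, Fos stood at 1957 CPM in Cxcl12 wells, 284 in Cd79b wells, 185 in S100a8 wells and 35.5 in Car1 wells, where 17 of its 20 transcripts came from 1 well. Single wells also gave 28 of the 50 transcripts in Cd79b wells and 12 of the 27 in S100a8 wells, and without them the levels there were 165 and 109 CPM. Exact Poisson 95% intervals, which cover counting error only, were 1686 to 2252 for Cxcl12 wells and 210 to 373 for Cd79b wells. Plate by plate, Fos in Cxcl12 wells was at 2330 CPM on plate 2 and 3265 on plate 4 but had no transcript in the 7 wells of plate 3, of which 6 had at most 3 transcripts of Cxcl12. In Car1 wells it was at 0 on plate 3 and at 45.9 CPM on plate 4, and 2 transcripts were found on plate 1.

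Egr1 was high in Cxcl12 wells and low in the other 3 groups. It was at 990 CPM (exact Poisson 95% interval 799 to 1205) in Cxcl12 wells and at 20.5 or less in the other 3 groups, where each had 3 transcripts. On plates 2 and 4 it reached 1597 and 1520 CPM in Cxcl12 wells, and on plate 3 none was found. Fosb was at 360 CPM in Cxcl12 wells against 39.7 in Cd79b, 34.2 in S100a8 and 14.2 in Car1 wells. Without the 3 wells described below, Fos, Egr1 and Fosb were at 461, 158 and 145 CPM in Cxcl12 wells. Each of these values was still above the levels of that gene in the other 3 groups, all pooled over plates. By plate, Fos was then at 1014 CPM in Cxcl12 wells of plate 2, against 82.3 in Cd79b and 294 in S100a8 wells. On plate 4 it was at 707 against 529 and 574, and on plate 3 at 0 against 0 and 71.2. In Cd79b wells of plate 1, which had 1 Cxcl12 well, Fos was at 1307 CPM.

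Jund and Btg2 did not follow Fos. Jund was highest in Cd79b wells, at 369 CPM against 267 in Cxcl12, 122 in Car1 and 75.2 in S100a8 wells, and was found in 17 of 28 Cd79b wells. The order of Cd79b and Cxcl12 wells lay within counting error (exact Poisson 95% intervals 284 to 469 and 175 to 392). Btg2 was at 210 CPM in Cd79b wells, 154 in Cxcl12 wells, 123 in S100a8 wells and 12.4 in Car1 wells. Its Cd79b values were 343, 412, 204 and 141 on plates 1 to 4, all above its Car1 values of 22.5, 0 and 15.3.

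Of the remaining genes, Jun was at 484 CPM in Cxcl12 wells, 204 in Cd79b, 88.8 in S100a8 and 31.9 in Car1 wells. Zfp36 was at 381, 176, 88.8 and 3.54 CPM in the same order, the last from 2 transcripts. In Cxcl12 wells 1 well gave 25 of its 37 transcripts. Without the 3 wells described below, Jun was at 60.6 and Zfp36 at 121 CPM in Cxcl12 wells, both below their levels in Cd79b wells. Ier2 ranged between 45.3 and 116 CPM over the 4 groups, and in Car1 wells 36 of its 40 transcripts came from 1 well. Junb ran from 55.0 to 175 CPM and Dusp1 from 22.7 to 123. Well 178 of plate 4, with 103902 transcripts, weighed on the Car1 wells: without it Ier2 was there at 8.68, Junb at 13.0, Jun at 13.0 and Jund at 67.3 CPM.

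**Figure D2:**
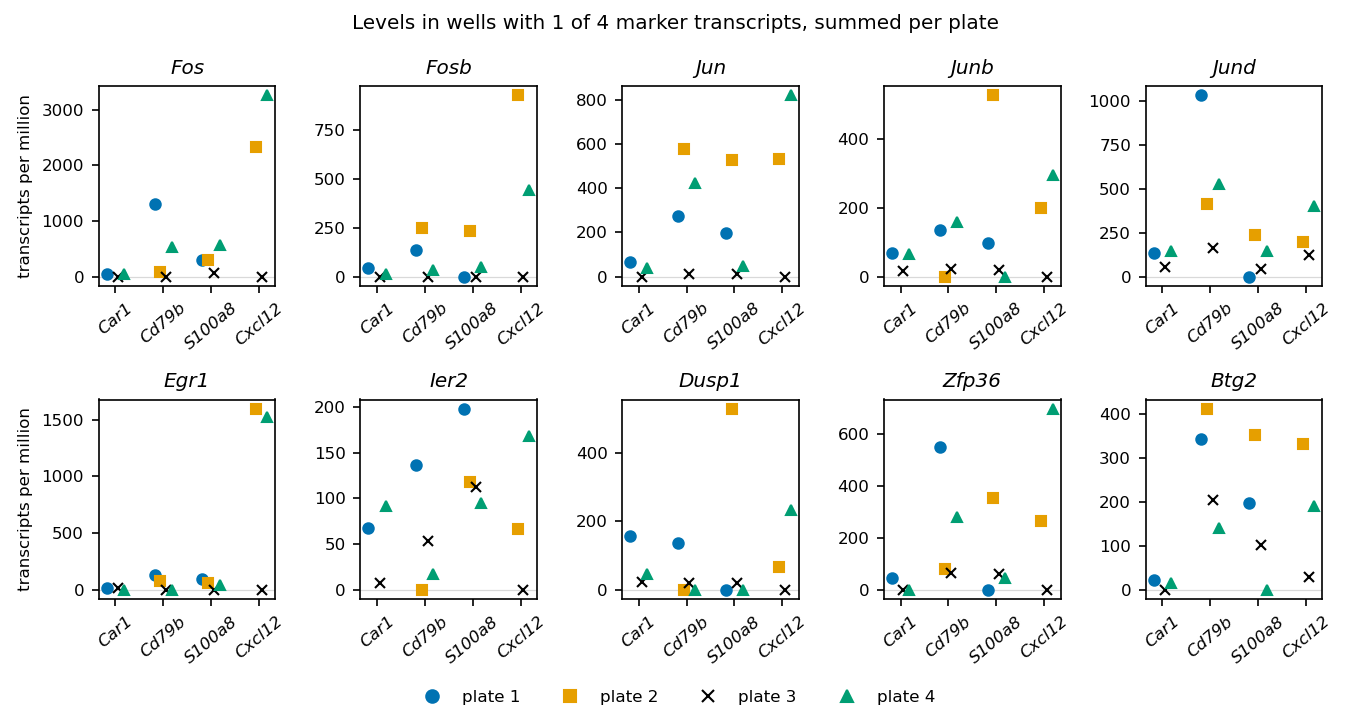
Transcripts per 1000000 (y axis, linear, a scale for each gene) in wells with transcripts of Car1, Cd79b, S100a8 or Cxcl12 only, summed per plate where at least 3 wells were found, with symbols for plates. Fos and Egr1 are high in the Cxcl12 sums of plates 2 and 4 (Fos 2330 and 3265, Egr1 1597 and 1520) and at 0 in that of plate 3, whereas Btg2 is above its Car1 values in all 4 Cd79b sums.

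These sums, 1 per group and plate with at least 3 wells, were compared with edgeR over 812 genes. Plate 2 had 0 Car1 wells and plate 1 had 1 Cxcl12 well, so those sums were missing. Car1 and Cxcl12 sums therefore met on the same plate only on plates 3 and 4, and on plate 3 Fos was at 0 in both. Of the 10 genes, 5 passed the filter on low values, Fos, Jun, Jund, Zfp36 and Btg2. Because all 3 comparisons use the same Car1 sums, they are not independent of each other. All 5 passed the filter through the groups where they were high. In the Car1 sums none was above 143 CPM (Jund on plate 4), and Zfp36 and Btg2 had at most 2 and 6 transcripts. The counts, fitted differences and p-values that follow are therefore a description. Against Car1 wells, all 5 rose in Cd79b wells (13.2% of tested genes rose), 4 of 5 rose in S100a8 wells (19.0%), and all 5 rose in Cxcl12 wells (20.9%).

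For Fos the log2 differences against Car1 wells were 3.52 (SE 0.84, edgeR adjusted p = 0.0058) in Cd79b, 4.34 (SE 0.90, edgeR adjusted p = 0.00141) in S100a8 and 7.01 (SE 0.96, edgeR adjusted p = 1.32e-05) in Cxcl12 wells. Without well 178 of plate 4, left out after the data were seen, these became 5.20, 6.08 and 9.05, and the counts stayed at 5, 4 and 5 of 5 (13.1%, 18.2% and 22.2% of tested genes). Jun rose by 2.84, 2.60 and 4.35 on the log2 scale in the same order. Its call in S100a8 wells (edgeR adjusted p = 0.0439) was lost in 12 of 15 alternatives. Jund rose in Cd79b (1.93, SE 0.62) and Cxcl12 wells (2.19, SE 0.72) and stood at 0.34 (SE 0.74, edgeR adjusted p = 0.789) in S100a8 wells, a value whose sign changed with the scaling. Zfp36 rose by 4.95, 4.89 and 6.57 and Btg2 by 3.77, 3.40 and 4.19. The Car1 sums held 2 transcripts of Zfp36, so the size of its fitted difference depends on the prior count.

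Scaling mattered for the Cxcl12 comparison. With the library size alone, the median over all genes moved to -1.14, 137 genes rose and 251 fell in place of 170 and 117, and 4 of the 5 genes rose. In S100a8 wells it moved to -0.51, with 123 genes up and 61 down in place of 154 and 32, and 2 of 5 rose. Leaving out the sums of a single plate brought the count down to 1 in each comparison, and that gene was Fos. This held in Cd79b wells without plate 3 (5 tested) or plate 4 (3 tested), in S100a8 wells without plate 3 or plate 4 (2 rose without plate 2), and in Cxcl12 wells without plate 4. The log2 differences behind these counts were as follows. In Cd79b wells without plate 3, Fos was at 3.83, Jun at 2.93, Jund at 2.35 and Zfp36 at 4.88, and in Cxcl12 wells without plate 4, Fos was at 7.80, Jun at 2.85 and Jund at 2.61. With sums split by library and the library as a block, 3 of the genes were tested and 0, 1 and 1 rose.

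Where a well needed at least 3 transcripts of its 1 marker, 9 of the genes could be tested, all but Dusp1. In Cxcl12 wells 7 of the 9 rose (22.9% of tested genes), in Cd79b wells 5 (16.9%) and in S100a8 wells 1 (19.8%). Egr1 is among these 7. It had 3 transcripts in each of the other groups as first defined and passed the filter through the Cxcl12 wells. Its fitted difference is therefore not given as a result, and these counts are a description like those above.

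The 3 wells with the most transcripts of the 10 genes per 1000 held much of the signal, all of the CD44- sort and with Cxcl12 as their 1 marker. Well 317 of plate 2 gave 56 transcripts of the 10 genes among 1230 (45.6 per 1000). Wells 220 and 225 of plate 4 gave 172 among 6943 (24.8 per 1000) and 153 among 6572 (23.4 per 1000). They held 59, 337 and 268 Cxcl12 transcripts and 0 of Car1, Cd79b and S100a8. The next well, on plate 1, was at 10.9 per 1000. By number alone, the Car1 well 178 of plate 4 held as many as well 225, 153, but among 103902 transcripts (1.48 per 1000).

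Together the 3 wells carried 382 of the 2013 transcripts of the 10 genes, 19.0%, in 0.442% of all transcripts. They carried 52.6% of Egr1, 43.4% of Fos, 30.3% of Fosb and 22.4% of Jun, but 3.98% of Jund and 0.806% of Btg2. Their makeup also differed: well 220 had 92 Fos and 1 Zfp36 transcripts, and well 225 had 39 Fos and 25 Zfp36. Without them Fos in the Cxcl12 wells was at 1014 CPM on plate 2, 0 on plate 3 and 707 on plate 4, and Egr1 at 579, 0 and 147.

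In the edgeR test without these wells, an addition made after the data were seen, 4 of the genes were tested. In Cxcl12 wells 2 rose, Fos by 5.68 (SE 1.04, adjusted p = 0.000554) and Btg2 by 4.63 (SE 1.10, adjusted p = 0.00412), where 23.4% of 658 genes did, while Jun stood at 1.47 (SE 1.17) and Jund at 1.57 (SE 0.97). Fos and Btg2 were also the 2 that rose in Cd79b wells, where 12.9% of genes did, and in S100a8 wells, where 19.0% did. The rise of Btg2 in Cxcl12 wells depended on the grouping. With these 3 wells kept and at least 3 transcripts of the marker, Btg2 stood at 0.31 (SE 1.09, edgeR adjusted p = 0.849). With wells placed by their most abundant marker, it stood at 0.99 (SE 0.69, edgeR adjusted p = 0.294). Fos stood at 5.77 and 5.78 in these settings. As first grouped, 7 of the 15 Btg2 transcripts in Cxcl12 wells came from 1 well with 1 Cxcl12 transcript.

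**Figure D3:**
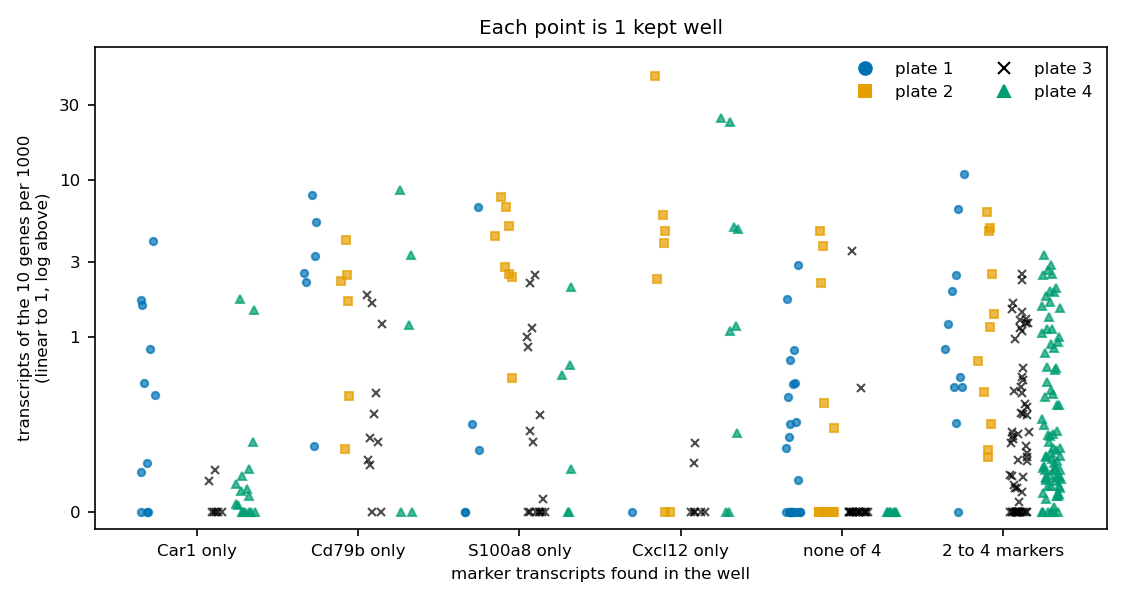
Transcripts of the 10 genes per 1000 transcripts in each of the 343 kept wells (y axis, linear to 1 and logarithmic above), by the marker transcripts found in the well and, within each, by plate. The 3 highest points, at 45.6, 24.8 and 23.4, are Cxcl12 wells of plates 2 and 4, and the plate 3 crosses of the Cxcl12 wells reach no higher than 0.394.

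Wells rich in Cxcl12 differed widely in these genes. Of 23 wells with at least 20 Cxcl12 transcripts, whatever their other markers, 16 were under 2 transcripts of the 10 genes per 1000, Fos was found in 6 and Egr1 in 9. On plate 2 Fos was found in 2 of 5 such wells, on plate 4 in 4 of 11 and on plate 3 in 0 of 7. The plate 3 wells summed 134637 transcripts, so a count of 0 allows up to 22.3 CPM of Fos there, against 155 Fos transcripts in 91733 on plate 4. This limit covers counting error only and not the spread between wells. Wells 220 and 225 gave 92 and 39 of the 155, and a difference between plates was not tested by wells. Sort and plate overlap here: 5 of the 7 plate 3 wells were CD44+, against 0 of 5 on plate 2 and 1 of 11 on plate 4, so the plate and the sort cannot be told apart. In the 2 CD44- wells of plate 3 neither Fos nor Egr1 was found.

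**Figure D4:**
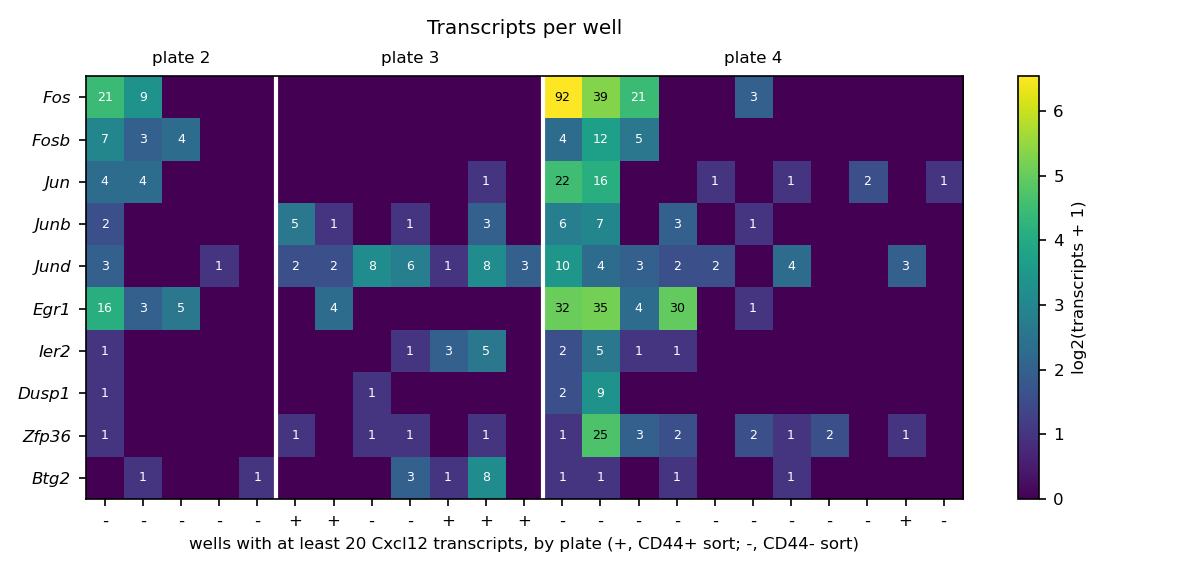
Transcripts of each of the 10 genes (rows) in the 23 wells with at least 20 Cxcl12 transcripts (columns, with the sort as + or - and ordered within each plate by the level of the 10 genes), coloured by log2(transcripts + 1). Fos and Egr1 counts are high in a few CD44- wells of plates 2 and 4, up to 92 and 35, while Jund is spread thinly over wells of all 3 plates.

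Plate 3 was also lowest in each of the 4 groups of wells with a single marker, among plates with at least 3 wells of the group. The median well held 0 transcripts of the 10 genes per 1000 in Car1 wells on plate 3, against 0.0902 and 0.668 on plates 4 and 1. In Cd79b wells it held 0.424, against 1.19 to 2.92 on the other 3 plates, and in S100a8 wells 0.236, against 0.353 to 3.58. In Cxcl12 wells it held 0, against 3.96 on plate 2 and 1.18 on plate 4, which had fewer wells with at most 3 Cxcl12 transcripts, as given above. In the wells with at least 2 markers plate 4 (0.342) lay below plate 3 (0.355), and in the wells with none the median was 0 on plates 2, 3 and 4.

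Other genes of the same pathways were counted from lists. Of 50 further immediate early genes, 46 had transcripts and 12 were tested between the sorts. None was called by edgeR, and with the replicate pair as a block Nfkbia, the inhibitor of NF-kappaB (-1.60, SE 0.33, adjusted p = 0.0208), and Zfp36l1, a relative of Zfp36 (-1.81, SE 0.47, adjusted p = 0.0485), fell in CD44+, 2 of 12 where 4.59% of tested genes fell. Against Car1 wells 6 were tested: Btg1, a relative of Btg2, rose in Cd79b wells (4.04, SE 0.70), 1 of 6 and so near the 13.2% of all tested genes, Btg1 and Klf6 rose in S100a8 wells (19.0%), and Klf6 (4.99, SE 0.92), Zfp36l1 (3.61, SE 0.71) and Btg1 (2.74, SE 0.88) rose in Cxcl12 wells (20.9%). The list's median log2 difference was 1.37, 1.15 and 2.12 in that order. Btg1 and Klf6 were at no more than 135 and 67.6 CPM in any Car1 sum. They passed the filter through the other groups, so their rises are a description.

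Of 16 other AP-1 subunits 3 were tested between the sorts and 1 between marker groups, and none was called by edgeR. Of 29 genes of ERK, p38, JNK and serum response factor signalling, which act before the immediate early genes, 10 were tested between the sorts with no call by edgeR, with or without the block, and a median of -0.23. None passed the filter between marker groups.

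Heat shock and chaperone genes, some of which respond to handling, were called in the opposite direction where they were called at all. Hspa1a and Hspa1b, at no more than 6.68 and 9.87 CPM in any library, were not tested. Whether the called genes responded to handling was not tested. All 19 had transcripts and 12 were tested between the sorts, with no call by edgeR and a median log2 difference of 0.62. With the block, Hsp90aa1 (1.14, SE 0.28, adjusted p = 0.0412) and Hspd1 (1.34, SE 0.33, adjusted p = 0.0431), which encode a cytosolic and a mitochondrial chaperone, rose in CD44+, where 1.75% of tested genes did. Against Car1 wells 7 were tested and none rose. Hspe1 and Hspd1 fell in Cd79b wells, where 4.43% of tested genes fell, Hsp90aa1, Hspd1 and Hspa8 in S100a8 wells (3.94%), and Hsp90ab1 and Hspe1 in Cxcl12 wells (14.4%). Hspd1 and Hspe1 passed the filter through the Car1 sums, and the other sums held at most 142 and 286 CPM of them. The falls of these genes are therefore a description.

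Among 921 genes found in at least 10% of thinned wells, the 5 whose ranks were most like the summed transcripts of the 10 genes were B2m (Spearman's rho 0.36), Tmsb4x (0.34), H2-D1 (0.31), Btg1 (0.30) and Nfkbia (0.30), over 342 wells that share plates and libraries. B2m and H2-D1 encode parts of MHC class I, Tmsb4x an actin-binding peptide. The summed level of the 10 genes was 448 CPM in the 55 wells of low quality and 612 CPM in the other 288.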

How the data were processed

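SORT-seq tags the transcripts of each well with a cell barcode and unique molecular identifiers (UMIs). The authors deposited expected counts: estimated transcripts for each gene in each well, unscaled. The submitters' processing notes name BWA 0.7.15 and build mm10. How transcripts were assigned to genes, and whether by strand, is not given in the sources used here. Values are whole up to 6 and then drift above whole numbers; a correction for repeated UMIs is inferred from this, and no label records it.

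Spike-ins were left out, wells with at least 1000 transcripts were kept, and transcripts were summed per library, or per plate and marker group with at least 3 wells, and rounded. Wells were numbered by row, which the labels do not state. No doublet caller was run on these sorted single cells. Low quality meant Kcnq1ot1, Mid1 and Erdr1 at 10% of transcripts or mitochondrial genes at 50%. Sums were compared with edgeR 4.0.16 in R 4.3.3 (quasi-likelihood, TMM, filterByExpr, two-sided, Benjamini-Hochberg adjusted p, threshold 0.05), without a covariate between sorts and with plate as a term between marker groups. The SE is the absolute log2 difference over the square root of F. CPM were scaled by summed transcripts alone. DESeq2 1.42.0 was an alternative. On simulated data, the sort comparison (2378 genes) recovered 95.3% of genes changed by 2 (log2 scale) and 100% of those changed by 4. The marker comparison (806 genes) recovered 80.8% and 100%, and false calls numbered 12 and 9. The simulation gave every gene the same dispersion and held no rich wells or plate differences. These shares therefore do not carry over to the 10 genes, whose SE between the sorts reached 1.60 (Fosb).

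Deviations from the sort mean correlated at 0.46, 0.31 and 0.32 in the 3 same-numbered pairs and between -0.36 and 0.08 in the others, a gap that is in part arithmetic. For replicates 2 and 3 the labels put the CD44+ and CD44- wells together on 1 plate, so the numbers were taken to pair the libraries.

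The 10 genes are always named. From the other lists up to 4 called genes per direction with the smallest p are named, and the 5 genes most like the summed 10. The members and lists were chosen with earlier results of these data known.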

Additional observations from a re-analysis of the deposited data

Results flagged for a closer look

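The level of Dusp1 in Cd79b wells was 137 CPM on plate 1, against 21.5 CPM on plate 3 and 0 on plates 2 and 4. It rests on 2 transcripts and lies under the 206 CPM that 3 transcripts would make in that sum, while a count of 0 allows up to 247 CPM on plate 2, so the plates are not shown to differ. The level of Dusp1 in S100a8 wells was 529 CPM on plate 2, from 9 transcripts in 6 of 8 wells, against 20.3 CPM on plate 3 and 0 on plates 1 and 4, where a count of 0 allows up to 297 and 143 CPM. Both were marked because 1 plate stood apart from the others relative to their range. Of 20 groups of 4 plates examined 2 were marked in this way, and chance alone marks about 1 in 20.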

How the results depend on the processing

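Between the sorts, the count of the 10 genes that fell was 0 as reported, 2 with the replicate block and 5 without the filter on low genes; of 149 values for single genes, 143 kept their direction and side of the threshold, 6 passed it newly and none reversed. The split of calls over all genes, 1 higher and 24 lower, was 43 and 113 with the replicate block, 98 and 172 with DESeq2 and 143 and 333 without the filter. Against Car1 wells, the count that rose in Cd79b wells (5) was 3 without the filter, 3 with wells placed by their most abundant marker, 0 with sums per library, 2 without the 3 wells highest per 1000, 3 without same-numbered wells of plates 1 and 2, and 1 to 4 leaving out each plate. The count in S100a8 wells (4) was 2 with library size alone, 2 without the filter, 1 with at least 3 transcripts of the marker, 1 by the most abundant marker, 1 with sums per library, 2 without the 3 wells highest per 1000, 2 without same-numbered wells, and 1 to 3 leaving out each plate. The count in Cxcl12 wells (5) was 1 with sums per library, 2 without the 3 wells highest per 1000 and 1 to 6 leaving out each plate. Jund in S100a8 wells turned to -0.15 with library size alone, -0.25 without the filter and -0.14 without plate 2. The cause of these changes was not tested, and each alternative tests its own number of genes, from 3 to 10 of the 10.

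For the share of wells with a transcript (CD44+ minus CD44-, in percentage points), leaving out the thinning turned Fos to 2.19, Junb to 1.82 and Ier2 to 5.08. Leaving out each replicate in turn gave -8.58 to 0.506 for Fos, -9.14 to 1.09 for Junb, -3.76 to 0.785 for Dusp1 and -8.63 to 2.74 for Btg2. The sign turned without CD44- replicate 1 in these 4 genes and also without CD44+ replicate 3 for Btg2 (0.439). With 3 libraries against 3 the smallest exact permutation p is 0.1, so no share could pass in any alternative. In the marker sums thinned to 1000 transcripts per well, none of the 10 genes passed the filter, so that comparison gave no value. Depth limits the genes with few transcripts: Fosb (76 in all), Dusp1 (92) and Egr1 in all wells but the Cxcl12 wells.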
